A study of Mus musculus with 48 samples.

Results

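CD4+ and CD8+ T cells sorted from the tumor-draining lymph nodes (TDLNs) of Yap-cKO mice were compared across genes. All libraries whose titles name Yap-cKO CD4 or CD8 TDLN cells were used, 4 of each cell type, which are 8 of the 48 libraries of the study. The mice were C57BL/6J with loxP-flanked Yap and Cre driven by the Cd4 promoter, together with a loxP-stopped EYFP reporter, were young adults and carried B16F10 melanomas. Because this Cre is active in thymocytes that carry both coreceptors, both populations descend from cells exposed to Cre, and the controls referred to here as WT were littermates. Live CD4+ or CD8+ T cells were sorted from the dissociated inguinal node, and nothing in the sources used here says whether same-numbered CD4+ and CD8+ libraries came from 1 mouse, so the p-values measure the spread between libraries. Each library held 14935201 to 19804040 counts on genes (median 18038417), and 3 counts in a library correspond to 0.151 to 0.201 CPM (counts scaled to an equal library size), below which a gene is not told apart from 0.

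CD4+ helper and CD8+ cytotoxic T cells arise from a common thymic precursor. The zinc-finger factor ThPOK, encoded by Zbtb7b, holds cells in the CD4+ lineage, and the factor Runx3 represses Cd4 and Zbtb7b and promotes the CD8+ lineage. In a lymph node most cells of either lineage are naive, the CD4+ compartment also holds Foxp3+ regulatory T cells (Tregs), and the CD8+ compartment holds cells that carry granule proteins and receptors shared with natural killer (NK) cells. Yap is a transcriptional coactivator restrained by the Hippo kinases, and the study asked what its loss does in T cells. The present comparison describes how the T-cell lineages of the Yap-deleted node differ from each other.

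The libraries varied in a way that cell type did not explain. The first principal component held 48% of the variance and placed CD4+ replicates 2, 3 and 4 with CD8+ replicate 3, apart from CD4+ replicate 1 and CD8+ replicates 1, 2 and 4. Ribosomal protein genes summed to 30070 to 38840 CPM in the former libraries and to 44650 to 61630 CPM in the latter. Mitochondrial protein genes summed to 6384 to 11060 CPM in the former and to 2812 to 7472 CPM in the latter. The cause of this spread was not tested. The second component held 23.2% and separated the cell types. CD8+ replicate 3 had 14555 genes with at least 10 counts, against 12195 to 12286 in the other CD8+ libraries and 12599 to 13319 in the CD4+ libraries.

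Of 12954 tested genes, 323 were called, which is 2.49%, where a call needed a log2 fold change beyond 1 in size and an adjusted p below 0.05. Of these, 155 (1.2%) were higher in CD4+ cells and 168 (1.3%) were higher in CD8+ cells. In all 323 the CD4+ and CD8+ libraries did not overlap, which was the case for 8.17% of all tested genes. The median log2 fold change over tested genes was -0.03, with positive values for genes higher in CD4+ cells. DESeq2 called 575 genes. Leaving out a library gave 164 calls without CD8+ replicate 2, 165 without CD4+ replicate 3, 170 without CD4+ replicate 2 and 207 without CD8+ replicate 1. Without both libraries numbered 3 there were 138, and 127 of the 323 genes were called with each of the 8 libraries left out in turn. The plot of fold change against mean level shows where the named genes lie.

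**Figure D1:**
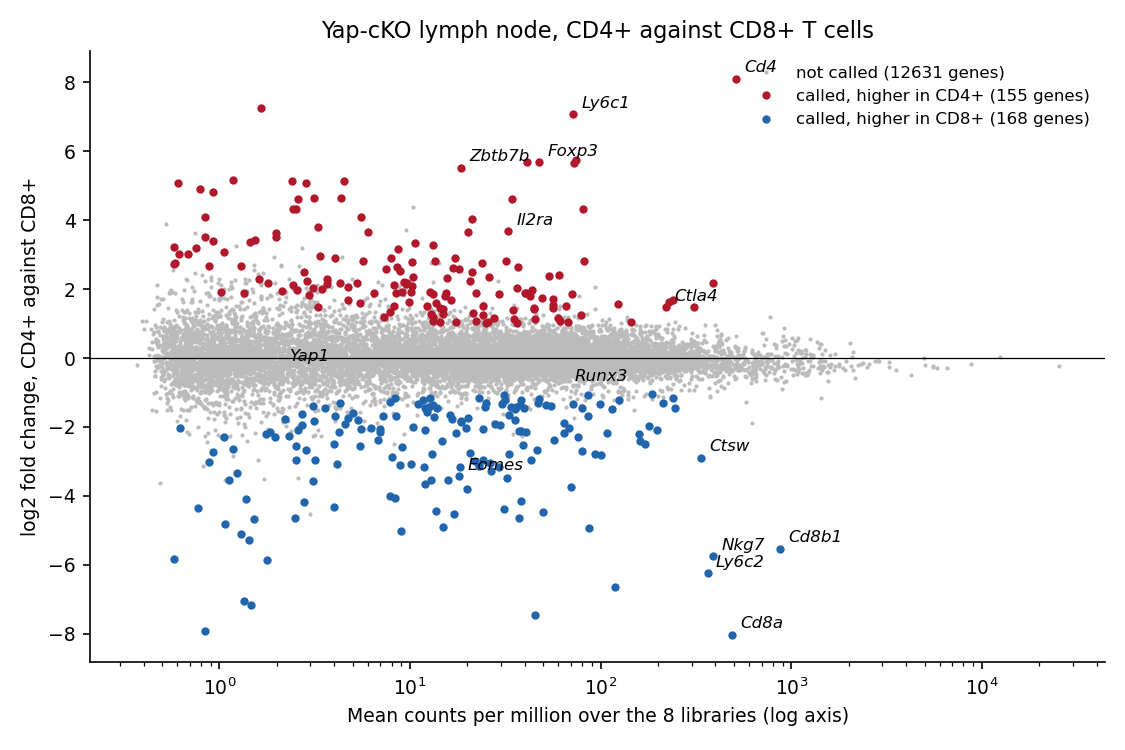
Each point is 1 of 12954 tested genes, with the mean CPM over the 8 Yap-cKO lymph node libraries on a log axis against the log2 fold change of CD4+ over CD8+ T cells. The 155 red and 168 blue points are the called genes. Cd4 and Cd8a lie farthest out in their directions, and Yap1 and Runx3 lie among the genes that were not called.

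The coreceptor genes set the sort and serve only as a check of it. Cd4 stood at 950 to 1059 CPM in the CD4+ libraries and at 2.13 to 5.44 CPM in the CD8+ libraries. Cd8a stood at 774 to 1155 CPM in CD8+ libraries and at 2.76 to 6.35 CPM in CD4+ libraries, and Cd8b1 at 1471 to 1938 CPM against 28 to 50.2 CPM. Every library matched its label by both coreceptors. Zbtb7b, which was no part of the sort, was 37.6, 44.5, 52.1 and 10.2 CPM in CD4+ replicates 1 to 4 and 0.874, 0.53, 1.41 and 0.247 CPM in CD8+ replicates 1 to 4. The groups were far apart although CD4+ replicate 4 held less of it than the other CD4+ libraries, and the log2 fold change was 5.52 ± 0.63 (SE, n = 4 against 4, adjusted p = 0.000982). Runx3 was 53.4, 44.6, 51.4 and 39.6 CPM in CD4+ libraries and 72.8, 75.8, 86.1 and 105 CPM in CD8+ libraries. These ranges did not overlap either, but the difference of -0.85 ± 0.20 had an adjusted p of 0.0539 and was not called.

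Yap1 itself was measured at low levels. Scaled to library size, it was 1.29, 1.68, 2.66 and 2.39 CPM in Yap-cKO CD4+ replicates 1 to 4 and 1.62, 1.14, 5.31 and 1.32 CPM in Yap-cKO CD8+ replicates 1 to 4. WT node libraries held 1.19 to 2.26 CPM in CD4+ cells and 1.79 to 2.56 CPM in CD8+ cells. These gene sums, of 17 to 93 counts a library in Yap-cKO cells, do not show which exons the reads came from, so they are no check of the deletion. The CD4+ and CD8+ values overlapped (log2 fold change -0.26 ± 0.50, adjusted p = 0.887), and without CD8+ replicate 3, the highest library, the difference was 0.42. Of the 26 genes listed for the Hippo pathway, Yap partners and Yap targets, 17 were abundant enough to test and 0 were called, with a median log2 fold change of 0.07. Over all tested genes 2.49% were called, and at that share a list of 17 can hold 0 calls, so equal levels are not shown. The Hippo kinase gene Stk4 was 711 ± 144 CPM (SD, n = 4) in CD4+ and 631 ± 49.6 CPM in CD8+ cells.

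Treg genes made up the most uniform group on the CD4+ side. All 22 listed Treg genes were tested, each had a higher fitted level in CD4+ cells (median log2 fold change 1.78), and 9 were called. Il10 and Itgb8 had fewer than 10 counts in every CD8+ library and could pass the filter through CD4+ cells alone. Over the other 20 genes the median was 1.69 and 7 were called. Leaving out single libraries gave 7 to 10 calls, where Il10 and Itgb8 were not tested without a CD4+ library, and there were 6 without both libraries numbered 3. In sorted bulk populations such a difference can come from the share of cells of a type or from the RNA of each cell, and these cannot be told apart. Foxp3, the factor that defines Tregs, was 154, 118, 44.3 and 57.5 CPM in the CD4+ libraries and 3.28, 1.06, 1.1 and 1.85 CPM in the CD8+ libraries. CD4+ replicates 1 and 2 held more of it than replicates 3 and 4, and none came near the CD8+ libraries (5.67 ± 0.55, adjusted p = 0.00037). Lrrc32, which encodes the receptor GARP that tethers latent TGF-beta on Tregs, followed the same order, with 152, 81.7, 30.1 and 60.1 CPM in CD4+ and 0.418 to 2.41 CPM in CD8+ libraries (5.69 ± 0.65, adjusted p = 0.000982). Il2ra, the high-affinity subunit of the IL-2 receptor, was 81.5, 79.4, 29.7 and 53.1 CPM against 2.72 to 7.27 CPM (3.68 ± 0.42, adjusted p = 0.00099).

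The other called Treg genes were Tnfrsf4, Ikzf4, Gpr83, Itgb8, Ctla4 and Il10. Ikzf4, an Ikaros family factor, was the steadiest of them at 13.6 to 15.6 CPM in CD4+ and 1.79 to 3.35 CPM in CD8+ libraries (2.51 ± 0.29, adjusted p = 0.00111). Itgb8, whose integrin releases active TGF-beta, was 2.95 to 6.85 CPM in CD4+ cells and at most 0.418 CPM in CD8+ cells (4.62 ± 0.82, adjusted p = 0.0139). Itgb8 and Il10 could pass the count filter through CD4+ cells alone, which fixed their direction. Il10, an anti-inflammatory cytokine, was 5.66, 2.65, 3.29 and 1.55 CPM in CD4+ libraries, whereas CD8+ replicates 1, 3 and 4 held none and replicate 2 held 0.0663 CPM, which is under the limit of detection, so no fold is given. Ctla4, the inhibitory receptor for B7 ligands, was 324 ± 104 CPM in CD4+ and 117 ± 25 CPM in CD8+ cells (1.47 ± 0.26, adjusted p = 0.0143). Izumo1r, the folate receptor FR4 of Tregs and anergic CD4+ cells, was 120 ± 83.2 CPM against 34.4 ± 23.2 CPM and was not called (adjusted p = 0.172).

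Called costimulatory and TNF superfamily genes were higher in CD4+ cells, although 7 of the tested genes had a negative sign. Of 29 listed genes 28 were tested, 6 were called higher in CD4+ cells and 0 were called higher in CD8+ cells, with a median log2 fold change of 0.63. Cd40lg, the ligand through which helper cells license B cells and dendritic cells, was 73.9, 185, 229 and 83.5 CPM in CD4+ and 0.865 to 4.76 CPM in CD8+ libraries (5.66 ± 0.59, adjusted p = 0.000597). Tnfrsf4, which encodes OX40, was 249, 170, 66.5 and 131 CPM against 3.55 to 13.9 CPM (4.32 ± 0.54, adjusted p = 0.00168). Tnfsf11, which encodes RANKL, was 69.5 ± 23.4 CPM against 17.7 ± 2.21 CPM (1.97 ± 0.27, adjusted p = 0.00284). Fasl, better known as a death ligand of killer cells, was 63.3 ± 22.1 CPM in CD4+ and 17.2 ± 7.46 CPM in CD8+ cells (1.88 ± 0.37, adjusted p = 0.0244). Tnfrsf25 was 65.2 ± 27 CPM against 24.4 ± 4.99 CPM (1.41 ± 0.31, adjusted p = 0.0398), and Ctla4 was the remaining call. Tnfrsf25 was called in 1 and Fasl in 3 of the 8 fits that left out a library. The costimulator Icos was 499 ± 169 CPM against 321 ± 50.4 CPM and was not called (adjusted p = 0.355). Calls higher in CD4+ cells fell to 3 without CD8+ replicate 4, where 1 gene was called higher in CD8+ cells, to 4 without CD4+ replicate 2, CD4+ replicate 3 or CD8+ replicate 2, and to 3 without both libraries numbered 3.

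Among 24 listed genes of the Th1, Th2 and Th17 subsets 16 were tested, 4 were called higher in CD4+ cells and Tbx21 was called higher in CD8+ cells. These counts were 2 and 0 without CD4+ replicate 2 or CD8+ replicate 2, 2 and 2 without CD8+ replicate 3, 2 and 1 without CD8+ replicate 4, 3 and 0 without CD4+ replicate 3 and 3 and 2 without CD4+ replicate 1, and without a count filter they were 10 and 2. Il1rl1, the IL-33 receptor of Th2 cells and Tregs, was 7.51, 18.3, 6.34 and 12.8 CPM in CD4+ and 0.437 to 1.57 CPM in CD8+ libraries (3.65 ± 0.50, adjusted p = 0.00311). The chemokine receptor genes Ccr8, Ccr4 and Ccr6, typical of skin-homing, Th2 and Th17 cells, differed by 3.65 ± 0.41, 2.60 ± 0.57 and 2.89 ± 0.64. Ccr8 was called with each of the 8 libraries left out, whereas Ccr4 and Ccr6 were called in 2 and 1 of these 8 fits. Of 16 listed follicular helper genes 14 were tested and 1 was called, the transcription factor gene Maf, at 15.3 ± 6.23 CPM against 3.33 ± 1.36 CPM (2.20 ± 0.42, adjusted p = 0.0207). No gene of this list was called without CD4+ replicate 2 or without CD8+ replicate 2, and 6 were called with DESeq2, 7 without a count filter and 4 with the replicate number as a block. Bcl6, the factor that defines follicular helper cells, was 63.8 ± 27.5 CPM against 36.8 ± 13.6 CPM (adjusted p = 0.427), and their cytokine gene Il21 was 1.04, 6.97, 1.74 and 1.33 CPM against at most 0.655 CPM (adjusted p = 0.117).

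Across the 40 listed T-cell transcription factors, all of them tested, Zbtb7b, Ikzf4, Maf and Runx1 were called higher in CD4+ cells and Eomes and Tbx21 higher in CD8+ cells. The counts fell to 2 and 1 without CD4+ replicate 2 or CD8+ replicate 2, to 3 and 1 without CD4+ replicate 3 and to 2 and 2 without CD8+ replicate 1. Zbtb7b, Ikzf4 and Eomes were called in all 8 fits that left out a library, Maf and Tbx21 in 5 and Runx1 in 4. Runx1, a relative of Runx3, was 69.8, 86.2, 95.4 and 79.4 CPM in CD4+ and 28.7 to 46.3 CPM in CD8+ libraries, opposite in sign to Runx3 (1.16 ± 0.21, adjusted p = 0.0144). Gata3, a factor of the CD4+ lineage and of Th2 cells, was 70.1 ± 15.3 CPM against 35.2 ± 5.35 CPM, and its log2 fold change of 0.99 (adjusted p = 0.0433) lay just under the fold threshold. Tcf7 and Ets1, factors of naive T cells, did not overlap between the groups at log2 fold changes of 0.42 ± 0.18 and 0.44 ± 0.17 and were not called (adjusted p = 0.403 and 0.348). The other 34 factors were not called, and 25 of the 40 had a positive sign.

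**Figure D2:**
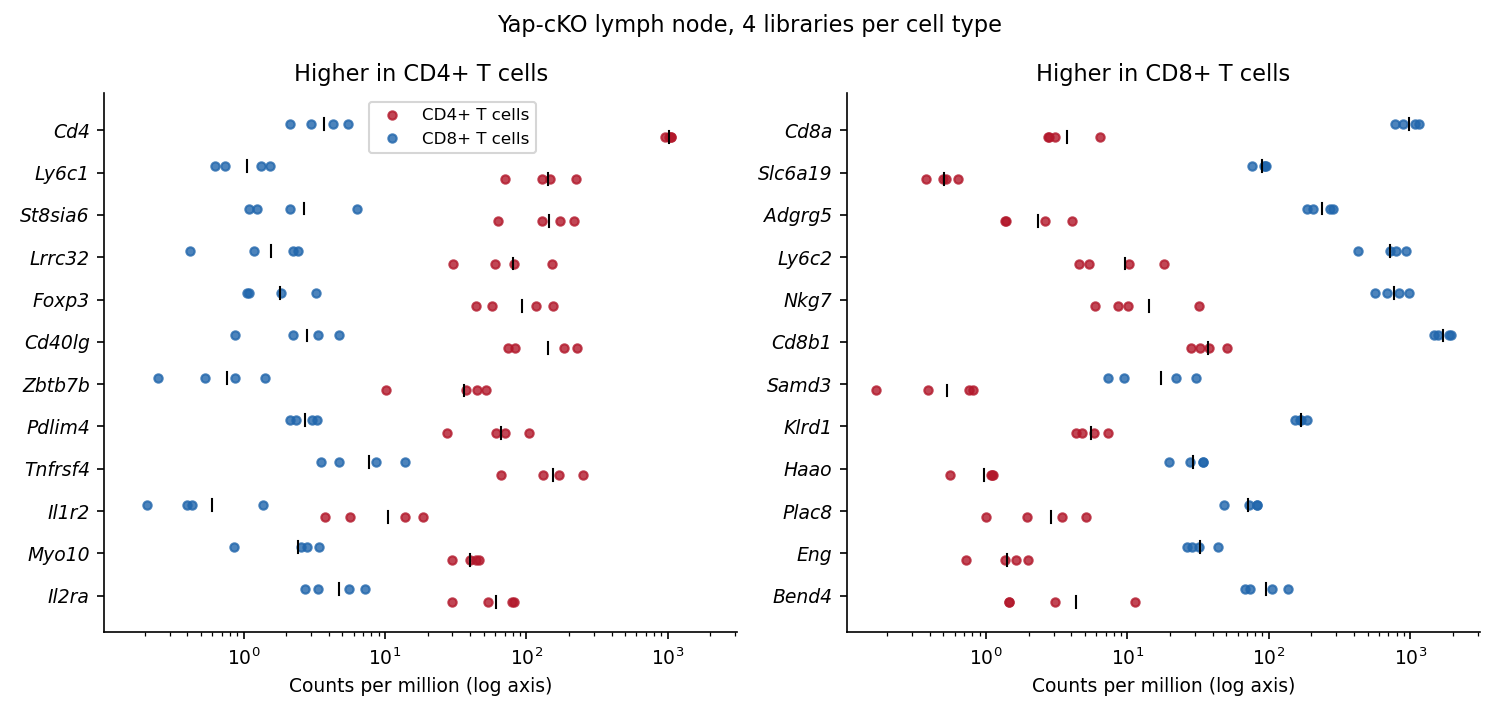
CPM on a log axis in each of the 4 CD4+ (red) and 4 CD8+ (blue) Yap-cKO lymph node libraries, for the 12 called genes with the largest log2 fold change in each direction and a mean of at least 10 CPM in the higher group. Black ticks are group means. In all 24 genes the red and blue points are separate, and Il1r2 comes closest, with 3.77 CPM in the lowest CD4+ library and 1.37 CPM in the highest CD8+ library.

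Other genes with large differences on the CD4+ side were less tied to a helper program. St8sia6, which encodes a sialyltransferase, was 63.4, 128, 174 and 216 CPM in CD4+ and 1.09 to 6.32 CPM in CD8+ libraries (5.74 ± 0.66, adjusted p = 0.00099). Pdlim4, which encodes a cytoskeletal adaptor with PDZ and LIM domains, was 105, 61.2, 70.7 and 27.4 CPM against 2.12 to 3.33 CPM (4.60 ± 0.41, adjusted p = 0.000249). Myo10, which encodes an unconventional myosin of filopodia, was 29.7 to 46.5 CPM against 0.862 to 3.44 CPM (4.04 ± 0.39, adjusted p = 0.00037). Il1r2, the decoy receptor for IL-1, was 18.5, 13.8, 3.77 and 5.63 CPM against 0.209 to 1.37 CPM (4.09 ± 0.70, adjusted p = 0.0115). It was the only one of the 24 genes in the plot that lost its call when a library was left out (CD8+ replicate 2, adjusted p = 0.0514). Itgb3, the beta-3 integrin chain, was 136 to 153 CPM in CD4+ and 12.4 to 29.2 CPM in CD8+ libraries (2.82 ± 0.28, adjusted p = 0.000412), and Tgfbr3, the TGF-beta coreceptor betaglycan, was 183 ± 24.7 CPM against 62.3 ± 10.2 CPM (1.56 ± 0.20, adjusted p = 0.00203).

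Genes of cytotoxic effectors were the main group higher in CD8+ cells. Of 22 listed genes 21 were tested, 11 were called higher in CD8+ cells and 2, Fasl and Gzmc, were called higher in CD4+ cells, with a median log2 fold change of -2.28. Gzmc had fewer than 10 counts in every CD8+ library and could pass the filter through CD4+ cells alone. Nkg7, a granule membrane protein needed for killing, was 982, 826, 563 and 681 CPM in CD8+ libraries and 32.3, 10.1, 8.56 and 5.91 CPM in CD4+ libraries (-5.75 ± 0.57, adjusted p = 0.000412). CD4+ replicate 1 held more of it than the other CD4+ libraries and still far less than any CD8+ library. Ccl5, a chemokine of memory and effector cells, was 59.2 to 85.1 CPM against 1.49 to 6.24 CPM (-4.16 ± 0.40, adjusted p = 0.00035), and Xcl1, which attracts cross-presenting dendritic cells, was 8.31 to 24.3 CPM against 0.332 to 2.02 CPM (-4.01 ± 0.63, adjusted p = 0.00738). Prf1, which encodes the pore-forming protein perforin, was 110, 109, 77 and 144 CPM in CD8+ and 30.8, 26.8, 31.7 and 19 CPM in CD4+ libraries (-2.02 ± 0.25, adjusted p = 0.00177).

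Ctsw, which encodes the lymphocyte protease cathepsin W, was 594 ± 83.1 CPM in CD8+ and 80.3 ± 14.6 CPM in CD4+ cells (-2.89 ± 0.21, adjusted p = 7.47e-05). Eomes, a T-box factor of memory and effector CD8+ cells, was 24.6, 44.8, 40.4 and 22.6 CPM against 2.54 to 3.73 CPM (-3.42 ± 0.31, adjusted p = 0.000271), and Tbx21, which encodes the related factor T-bet, was 29.7 to 41.2 CPM against 1.27 to 9.88 CPM (-2.76 ± 0.50, adjusted p = 0.0159). Crtam, Cst7, Gzmm and Serpinb9 were the remaining called members, with log2 fold changes from -3.14 to -1.23. Of the granzyme genes, Gzmm (-2.59) was called, and Gzma (-2.28) and Gzmk (-2.43) had the same sign without a call. Gzma was 0.983 to 2.04 CPM in CD8+ and 0.0484 to 0.578 CPM in CD4+ cells (adjusted p = 0.0954), and Gzmk was at most 2.51 CPM in any library (adjusted p = 0.391). Gzmb was 9.33 ± 5.29 CPM in CD4+ and 6.05 ± 3.41 CPM in CD8+ cells (adjusted p = 0.725). Gzmc, at 0.884 to 2.27 CPM in CD4+ libraries and at most 0.382 CPM in CD8+ libraries, was called (adjusted p = 0.0403). Gzmc could pass the count filter through CD4+ cells alone, which fixed its direction. It was called in 1 of the 4 fits that left out a CD8+ library and was not tested when a CD4+ library was left out. Leaving out single libraries gave 8 to 11 calls higher in CD8+ cells for this list, and 9 were counted without both libraries numbered 3.

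Of 24 listed receptors shared with NK cells 16 passed the count filter. Klra4, Klra6, Klra7 and Klrc2 had fewer than 10 counts in every CD4+ library and Klrg1 in every CD8+ library, so these 5 could pass through 1 group alone, which fixed their direction. Of the other 11, Klrd1, Cd160 and Klre1 were called higher in CD8+ cells and 0 higher in CD4+ cells, with a median log2 fold change of -1.46. Klrd1, which encodes CD94, the partner chain of the NKG2 receptors, was 186, 168, 167 and 153 CPM in CD8+ and 4.31 to 7.33 CPM in CD4+ libraries (-4.92 ± 0.24, adjusted p = 3.26e-06). Cd160, a receptor for HVEM and class I molecules, was 20.2 to 45.6 CPM against 2.32 to 5.83 CPM (-3.16 ± 0.39, adjusted p = 0.00153). Klra6, an inhibitory Ly49 receptor gene, was 1.54 to 1.86 CPM in CD8+ libraries and had 0 counts in all CD4+ libraries, so it was at least 10.4-fold higher in CD8+ cells against a mean floor of 3 counts a library. Klra4, Klra7, Klrc2 and Klre1 stood at 0.68 to 4.38 CPM in CD8+ and at most 0.811 CPM in CD4+ libraries, and Ly49 genes are near-identical copies whose counts may be split among them. Klrg1, a receptor of terminally differentiated cells and of some Tregs, went the other way, with 7.8, 16.6, 7.98 and 2.82 CPM in CD4+ and 0.109 to 0.418 CPM in CD8+ libraries (5.13 ± 0.65, adjusted p = 0.002). Klrd1 and Cd160 were called with each of the 8 libraries left out, Klre1 with 6 and Klrg1 with 4. Over all 16 tested receptors, 7 calls higher in CD8+ cells became 2 without CD8+ replicate 2 and 3 without CD8+ replicate 1, 3 or 4, and Klra4, Klra6, Klra7 and Klrc2 were then no longer tested, because fewer than 4 libraries held 10 counts. For the same reason Klrg1 was not tested when a CD4+ library was left out.

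The NK-cell markers were read beside these lists. Summed over its 7 genes, that list was 29.6 to 52 CPM in CD8+ and 4.08 to 13.7 CPM in CD4+ libraries, and 188 to 290 CPM in CD45+ cells without CD4 or CD8 from the same nodes. It also holds Eomes, which made up 22.6 to 44.8 CPM of the CD8+ sums. Ncr1, a defining NK receptor, was at most 0.346 CPM in any of the 8 libraries against a mean of 22.5 CPM in the CD45+ cells, and Klrb1c was 0.662 to 2.54 CPM in CD4+ and 1.42 to 1.79 CPM in CD8+ libraries. Fcer1g was 0.221 to 0.923 CPM in CD4+ and 1.15 to 2.97 CPM in CD8+ libraries and was not called (adjusted p = 0.105). Tyrobp was 0.331 to 4.67 CPM in CD4+ and 1.41 to 2.45 CPM in CD8+ libraries. For Cd244a these ranges were 0.331 to 1.73 CPM and 0.6 to 1.09 CPM. Klra8 was seen only in CD8+ replicates 2 and 3, at 0.331 and 0.417 CPM.

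Slc6a19 and Adgrg5 marked CD8+ cells more sharply than any cytotoxic gene. Slc6a19, a transporter of neutral amino acids known from gut and kidney, was 94, 76.2, 92.7 and 96.1 CPM in CD8+ and 0.378 to 0.629 CPM in CD4+ libraries (-7.45 ± 0.26, adjusted p = 4.17e-07), the smallest adjusted p of the comparison. Adgrg5, an adhesion G protein-coupled receptor, was 185 to 285 CPM against 1.35 to 4.05 CPM (-6.65 ± 0.43, adjusted p = 2.93e-05). Haao, an enzyme of tryptophan catabolism, was 19.7 to 34.2 CPM against 0.552 to 1.11 CPM, and Eng, the TGF-beta family coreceptor endoglin, was 26.6 to 43.4 CPM against 0.718 to 1.96 CPM. Samd3, Plac8 and Bend4 completed the 12, with log2 fold changes of -5.02 ± 0.63, -4.64 ± 0.47 and -4.47 ± 0.67.

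Short promoter stretches are shown for genes that carry the lineage difference and hold a core motif of a factor named above. Runx factors bind TGTGGT, which reads ACCACA on the opposite strand. T-box factors such as T-bet and Eomes bind AGGTGTG, which reads CACACCT on the opposite strand. Both strands of RefSeq promoter windows on GRCm38.p6, from 250 bases before to 50 bases after each start, were searched, and no stretch shown holds both motifs. The Nkg7 window also holds the T-box core, outside the stretch shown. Capitals mark the motif, at position -83 in Nkg7, -134 and -126 in Runx3, -179 in Ly6c2, -122 in Adgrg5, -130 in Prf1, -14 in Samd3 and -120 in Il2ra, where -1 is the base just before the start. The stretches were chosen because they hold a motif.
Nkg7 (chr7:43437033-43437072, plus strand): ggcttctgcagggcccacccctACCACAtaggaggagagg
Runx3 (chr4:135120490-135120544, plus strand): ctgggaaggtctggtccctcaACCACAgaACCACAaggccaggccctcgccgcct
Ly6c2 (chr15:75112122-75112171, minus strand): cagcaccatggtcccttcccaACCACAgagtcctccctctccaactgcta
Adgrg5 (chr8:94923549-94923598, plus strand): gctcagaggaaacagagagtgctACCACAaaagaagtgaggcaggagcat
Prf1 (chr10:61297681-61297730, plus strand): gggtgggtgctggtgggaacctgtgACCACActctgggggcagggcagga
Samd3 (chr10:26229667-26229701, plus strand): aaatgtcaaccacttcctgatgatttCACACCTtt
Il2ra (chr2:11642647-11642696, plus strand): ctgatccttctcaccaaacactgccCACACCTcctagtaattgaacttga

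Nkg7, Ly6c2, Adgrg5 and Prf1 were higher in CD8+ cells, Runx3 was not called, and each held the Runx core upstream of its start, Runx3 at 2 neighbouring places. Among called genes with a promoter entry, 36 of 122 that were higher in CD8+ cells (29.5%) and 20 of 113 that were higher in CD4+ cells (17.7%) had TGTGGT on either strand in a window of any start, against 1473 of 9610 tested genes (15.3%). For AGGTGTG the shares were 11.5%, 7.96% and 5.47%. Of all 32851 promoter windows, 16.8% held the Runx core and 5.84% the T-box core. Of the 12 plotted genes higher in CD8+ cells 10 had an entry, 4 with the Runx core and 3 with the T-box core, while Cd8a, Slc6a19, Haao, Eng and Bend4 had neither. Of the 12 higher in CD4+ cells 9 had an entry, of which Zbtb7b held the Runx core and Il2ra the T-box core. A match describes letters in a short window and shows no binding.

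Among 27 listed genes of naive, circulating and memory cells 26 were tested, 1 was called higher in CD4+ and 3 higher in CD8+ cells. The paralogs Ly6c1 and Ly6c2, neighbours on chromosome 15 (GRCm38, chr15:75044018-75048830 and chr15:75108158-75111970, both on the minus strand), which encode nearly identical surface proteins stained together as Ly6C, went in opposite directions. Ly6c1 was 226, 147, 128 and 70.7 CPM in CD4+ and 0.627 to 1.53 CPM in CD8+ libraries (7.08 ± 0.48, adjusted p = 3.63e-05). Ly6c2 was 935, 792, 424 and 720 CPM in CD8+ and 4.55 to 18.2 CPM in CD4+ libraries (-6.23 ± 0.53, adjusted p = 0.00018). How Salmon divided reads between these copies was not tested. Itgae, the CD103 integrin of resident cells, was 417, 237, 226 and 280 CPM in CD8+ and 24.6 to 79.6 CPM in CD4+ libraries (-2.48 ± 0.40, adjusted p = 0.00826), and Il18rap, a subunit of the IL-18 receptor, was 28.8 ± 13 CPM against 8.05 ± 3.17 CPM (adjusted p = 0.0384). Itgae was called in all 8 fits that left out a library and Il18rap in 2. Ccr7, which directs naive cells into nodes, was 3523 ± 697 CPM in CD4+ and 4956 ± 2808 CPM in CD8+ cells and was not called (adjusted p = 0.714).

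In the list of 33 chemokine receptor and adhesion genes 32 were tested, 5 were called higher in CD4+ cells (Itgb3, Itgb8, Ccr8, Ccr4 and Ccr6) and 2 higher in CD8+ cells (Ccr9 and Itgae). The counts were 2 and 3 without CD4+ replicate 1 or CD4+ replicate 2, 3 and 4 without CD8+ replicate 3, 3 and 2 without CD4+ replicate 3, CD4+ replicate 4, CD8+ replicate 2 or CD8+ replicate 4, 5 and 6 with DESeq2, and 5 and 5 with the replicate number as a block or without a count filter. Itgb8 could pass the count filter through CD4+ cells alone, which fixed its direction, and it was not tested without a CD4+ library. Over the other 31 genes 4 were called higher in CD4+ and 2 higher in CD8+ cells. Ccr9, the gut-homing receptor, was 90.9, 139, 194 and 94.2 CPM in CD8+ and 5.31 to 13.4 CPM in CD4+ libraries (-3.75 ± 0.36, adjusted p = 0.00037). Of 39 cytokine receptor and JAK-STAT genes, all tested, Il2ra, Tgfbr3 and Cish were called higher in CD4+ cells and Il18rap higher in CD8+ cells. Cish, an inhibitor induced by STAT5, was 92.1, 94.9, 41.1 and 35.6 CPM in CD4+ and 14.3 to 23.7 CPM in CD8+ libraries (1.81 ± 0.35, adjusted p = 0.0243), and it was called in 4 of the 8 fits that left out a library. Il18rap was called in 2 of these 8 fits, and with library size alone 0 genes of this list were called higher in CD8+ cells.

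Several groups gave 0 calls in edgeR, and DESeq2 called 1 gene higher in CD8+ cells in each of the class I and immediate early lists and 0 in the others. These were the 29 tested genes of the T-cell receptor complex and its proximal signaling, 20 of class I antigen presentation, 30 induced by interferon, 22 immediate early genes and 30 of the cell cycle. At the 2.49% called over all tested genes, lists of these sizes can hold 0 calls, so equal levels are not shown. Cd3e, a signaling chain of the receptor, was 982 ± 247 CPM in CD4+ and 1178 ± 223 CPM in CD8+ cells. Cd5, which tunes receptor signaling, was 661, 495, 448 and 275 CPM in CD4+ and 172 to 304 CPM in CD8+ libraries and led that list (0.97 ± 0.28, adjusted p = 0.131). All 20 class I genes had a negative sign, with log2 fold changes from -1.27 to -0.08 and a median of -0.32. H2-K1 and H2-D1, classical class I heavy chains, were 5106 ± 1418 and 5064 ± 1520 CPM in CD4+ and 6014 ± 1804 and 6033 ± 1668 CPM in CD8+ cells. Nlrc5, the transactivator of class I genes, was 176 to 208 CPM in CD4+ and 223 to 303 CPM in CD8+ libraries without overlap, at a log2 fold change of -0.46 ± 0.17 (adjusted p = 0.312). Cell-cycle genes had a median of 0.50 with 20 of 30 positive, and Mki67, a marker of dividing cells, was 4.58 ± 1.79 CPM in CD4+ and 1.64 ± 1.07 CPM in CD8+ cells (adjusted p = 0.208).

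**Figure D3:**
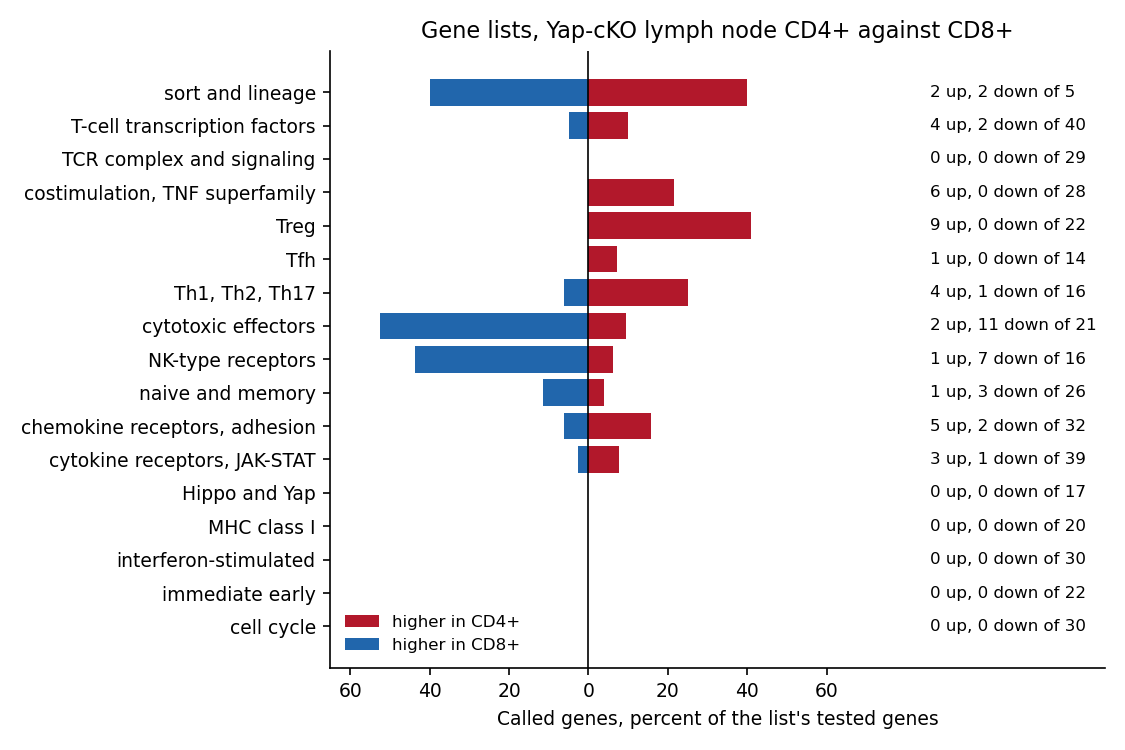
Called genes as a percent of the tested genes of each of 17 gene lists in the Yap-cKO lymph node, red to the right for genes higher in CD4+ and blue to the left for genes higher in CD8+ cells, with the counts at the right. Treg genes (9 of 22) lie on the CD4+ side, but Il10 and Itgb8 could pass the count filter through CD4+ cells alone. Over the other 20 Treg genes 7 were called. Cytotoxic effectors (11 of 21) and NK-type receptors (7 of 16, of which 4 could pass the count filter through CD8+ cells alone) lie mostly on the CD8+ side. Gzmc and Klrg1 on the CD4+ side of these lists, and Itgb8 in the adhesion list, could pass through CD4+ cells alone. No bar is drawn for 6 lists.

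Markers of other cell types were read in all 8 libraries. Over 8 pan-T genes the summed level was 4479 to 6982 CPM in CD4+ and 4423 to 6676 CPM in CD8+ libraries, against 362 to 530 CPM in the CD45+ cells. For B cells 12 of 12 markers were tested and 0 were called, and their sum was 200 to 519 CPM in CD4+ and 505 to 884 CPM in CD8+ libraries (exact permutation test, two-sided, p = 0.0857), against 16420 to 20330 CPM in the CD45+ cells. All 12 had a negative sign, from -1.86 for Cd79b to -0.49 for Ighm. Cd79b and Ighd did not overlap between the groups, which was the case for 8.17% of all tested genes. Ighm made up 164 to 410 CPM of the CD4+ and 395 to 579 CPM of the CD8+ sums. The dendritic list, led by MHC class II genes and Cd74, had 9 of 12 markers tested and 0 called, with 155 to 627 CPM in CD4+ and 541 to 938 CPM in CD8+ libraries (exact permutation p = 0.0857) against 44740 to 65990 CPM. Clec9a of the dendritic and Cd14 of the myeloid list were at most 0.242 and 0.556 CPM in any library, but Clec9a averaged only 0.852 CPM in the CD45+ cells. Other members were not this low. Xcr1 was 2.59 to 5.02 CPM against a mean of 4.2 CPM in the CD45+ cells, and Zbtb46 2.1 to 7.81 CPM against 8.73 CPM. Lyz2 was 3.75 to 18.3 CPM against 239.5 CPM, and Itgax at most 2.51 CPM against 14.4 CPM. Stromal and endothelial markers summed to 165 to 204 CPM in CD4+ and 99.8 to 138 CPM in CD8+ libraries (exact permutation p = 0.0286, the smallest that 4 against 4 allows, and 0.0929 after adjustment over the 13 lists). Pecam1, which lymphocytes also express, made up 162 to 201 CPM and 98.6 to 136 CPM of these sums. The 13 lists include those of the CD4 and CD8 lineages, which hold Cd4 and Cd8a, so the sort set their p. Counting them lowers the adjusted value. Of the myeloid markers Itgam was called, at 3.12 to 7.55 CPM in CD4+ and 0.729 to 1.75 CPM in CD8+ libraries (adjusted p = 0.028, called in 2 of the 8 fits that left out a library). Myeloid, gamma-delta T-cell and melanoma markers summed to at most 30.8, 72 and 13.4 CPM in any library. The part of these cells in the differences above was not tested.

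**Figure D4:**
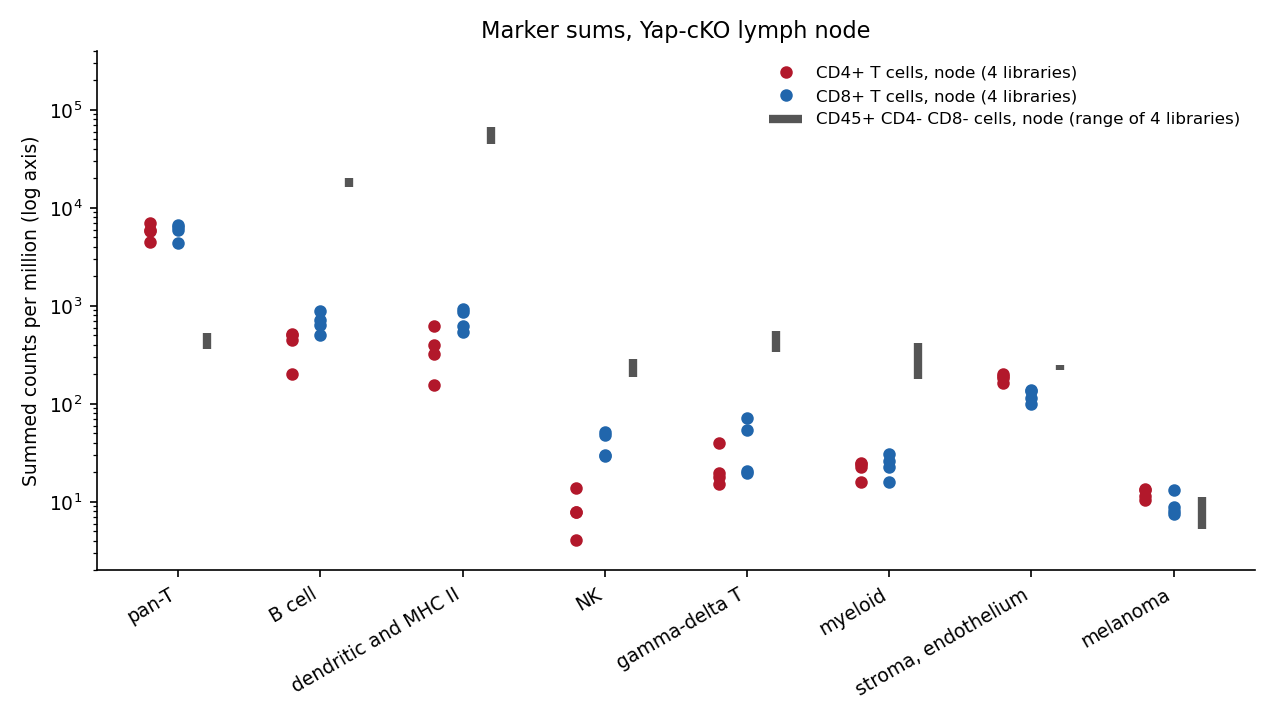
Summed CPM on a log axis of marker genes of each cell type in the 4 CD4+ (red) and 4 CD8+ (blue) Yap-cKO lymph node libraries, after TMM scaling, beside the range in 4 libraries of CD45+ cells without CD4 or CD8 from Yap-cKO nodes, scaled to library size. B-cell sums of at most 884 CPM in T cells lie far below the 16420 to 20330 CPM of the CD45+ cells, and the gamma-delta list holds Blk, which B cells also express.

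The difference between CD4+ and CD8+ cells was set beside that of WT nodes, which share no library with it. In WT nodes 481 of 12785 genes were called (3.76%), 276 higher in CD4+ (2.16%) and 205 higher in CD8+ cells (1.6%). Both comparisons called 262 genes in the same direction, which is 81.1% of the Yap-cKO calls and 54.5% of the WT calls, and 0 in opposite directions. Of the 314 Yap-cKO calls that were also tested in WT cells, 311 had the same sign. Across the 12493 genes tested in both, Pearson's r of the log2 fold changes was 0.87 and Spearman's rho 0.78, a description over genes that share libraries. With the replicate number as a block, 891 genes were called in WT nodes (537 higher in CD4+ and 354 higher in CD8+ cells), where same-numbered libraries deviated together. Foxp3 was 50.9-fold higher in CD4+ cells of Yap-cKO nodes, with a log2 fold change of 5.67 there and 6.35 in WT nodes. For Cd40lg these were 5.66 and 6.17, for Nkg7 -5.75 and -5.81, for Slc6a19 -7.45 and -6.29, and for Klrd1 -4.92 and -5.16. Of the 22 tested Treg genes 9 were called in Yap-cKO and 16 in WT nodes, with medians of 1.78 and 2.26, while the cytotoxic list had 11 genes higher in CD8+ cells and a median of -2.28 in both.

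Whether the lineages differed more or less in Yap-cKO than in WT nodes was tested as an interaction over the 16 libraries. In edgeR 0 of 13867 genes were called (0%), 80 had an unadjusted p under 0.05, and DESeq2 called 2, Gzmc and Gm13835. Those 80 are a smaller share than the 0.05 reached when nothing differs, so the edgeR test was conservative here. Its 0 calls do not show that the lineages differed equally in both genotypes. Gzmc had a CD4+ to CD8+ log2 fold change of 3.40 in Yap-cKO and of -0.76 in WT nodes, with means of 1.71 and 0.15 CPM in Yap-cKO and 1.59 and 2.7 CPM in WT CD4+ and CD8+ cells. It had at most 7 counts in any Yap-cKO CD8+ library. In the Yap-cKO comparison it could pass the count filter through CD4+ cells alone, which fixed its direction there. The interaction of Foxp3 was -0.70 and that of Zbtb7b -0.43, neither called. With data simulated at these levels, an adjusted p below 0.05 without the fold threshold recovered 32% of genes whose difference changed 4-fold and 3% of those that changed 2-fold. The simulated libraries did not deviate together by replicate number as the WT node libraries did, so these shares may not carry over.

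In Yap-cKO tumors 346 of 13902 genes were called between CD4+ and CD8+ T cells (2.49%). Those called in the same direction in node and tumor numbered 96, which is 29.7% of the node calls and 27.7% of the tumor calls, and 0 were opposite. Of 311 node calls tested in tumors, 276 had the same sign, and over 12512 genes r was 0.45 and rho 0.12. With the replicate number as a block, 612 genes were called in tumors (328 higher in CD4+ and 284 higher in CD8+ cells). The interaction of tissue and cell type called 29 of 14802 genes (0.196%), 15 with a more positive CD4+ to CD8+ difference in the node (0.101%) and 14 with a more negative one (0.0946%). With the replicate number as a block in each tissue 69 were called (29 and 40), among them all 29. Plac8 was 2.87 and 71.3 CPM in node CD4+ and CD8+ cells and 120 and 139 CPM in tumor CD4+ and CD8+ cells (interaction -4.44, adjusted p = 0.00728). Nkg7 was 14.2 and 763 CPM in the node and 674 and 2014 CPM in the tumor (adjusted p = 0.0146), and Sytl3, a regulator of vesicle release, was 5.28 and 58.9 CPM in the node and 65.3 and 75.8 CPM in the tumor (adjusted p = 0.0109). Plac8, Nkg7 and Sytl3 were thus low in node CD4+ cells and high in the other populations. Itgae was higher in CD8+ cells of the node, and in the tumor it was 88.1 CPM in CD4+ and 41.2 CPM in CD8+ cells, where it was not called (interaction adjusted p = 0.0364).

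Fasl was 63.3 and 17.2 CPM in node CD4+ and CD8+ cells and 90.6 and 190 CPM in the tumor (interaction 2.95, adjusted p = 0.013), and Pdlim4 was 66 and 2.71 CPM in the node and 6.75 and 3.96 CPM in the tumor (3.84, adjusted p = 0.013). The arrestin-domain gene Arrdc4 and the kinase gene Matk had interactions of -3.25 and -2.88. Lgmn, which encodes the protease legumain, was 35.8 and 6.36 CPM in the node and 45.5 and 134 CPM in the tumor, and Cers6, a ceramide synthase gene, was 58.4 and 14.3 CPM in the node and 8.79 and 21.6 CPM in the tumor. F13a1, Pid1 and Cd163, of which F13a1 and Cd163 are known from macrophages, stood at 1.96, 3.97 and 1.67 CPM in node CD4+ cells and at 99.1, 17.3 and 11.4 CPM in tumor CD8+ cells. Myeloid markers summed to 148 to 553 CPM in tumor CD4+ and 799 to 2281 CPM in tumor CD8+ libraries, against at most 30.8 CPM in the node libraries, and their part in these interactions was not tested.

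**Figure D5:**
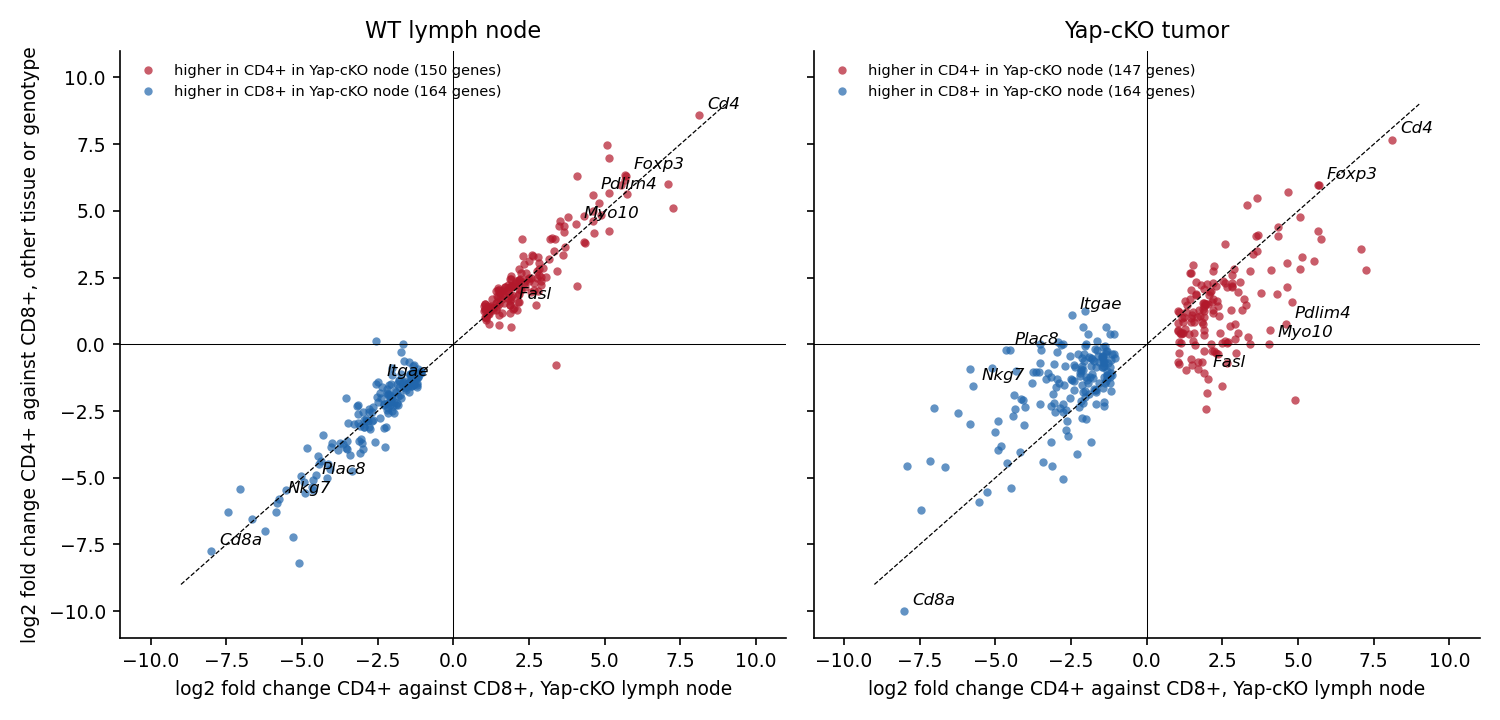
Log2 fold change of CD4+ over CD8+ T cells in the Yap-cKO lymph node against that in the WT lymph node (left) and the Yap-cKO tumor (right), for the genes called in the Yap-cKO node that were tested in the other comparison. The dashed line marks equal values. In WT nodes 311 of 314 points have the same sign, and in tumors 276 of 311 do, with Itgae and Fasl among those on the other side of 0.

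T-cell receptor variable genes stood out after the values were seen, so their count is a description. Of 113 tested, 15 were called, 7 higher in CD4+ and 8 higher in CD8+ cells, which is 13.3% beside the 2.49% of all genes. Of the 15, 4 were called in all 8 fits that left out a library, 5 in 1 of them and Trav16n in none. Of 21 tested beta-chain variable genes 7 were called. Trbv31 was 94.5, 73.3, 83.5 and 53.1 CPM in CD4+ and 18.4 to 27.9 CPM in CD8+ libraries (1.75 ± 0.23, adjusted p = 0.00264). Trbv12-1 was 16.5, 13, 13.6 and 13 CPM in CD4+ and 61.7, 56.1, 43.2 and 82.6 CPM in CD8+ libraries (-2.12 ± 0.24, adjusted p = 0.000874), and its neighbour Trbv12-2 was 30.3 ± 1.69 CPM against 80.2 ± 24 CPM. Trbv5 and Trbv20 were higher in CD4+ cells by 1.14 ± 0.23 and 1.04 ± 0.21, and Trbv29 and Trbv17 were higher in CD8+ cells at -2.06 ± 0.33 and -1.42 ± 0.21. Trbv5 and Trbv20 were each called in 1 of the 8 fits, and Trbv31, Trbv12-1, Trbv29 and Trbv17 in all. The alpha-chain genes were 4 higher in each direction, and several belong to duplicated clusters whose copies share reads. All 15 had the same sign in WT nodes, where 12 of them were called.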

How the data were processed

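RNA of the sorted cells was made into SMART-Seq v4 libraries and sequenced as paired-end reads. The authors quantified transcripts with Salmon (version 0.9.1, with FastQC, Trimmomatic and mm10, in the submitters' processing notes) and deposited, per library, expected counts of reads, TPM and effective lengths for each transcript. Transcripts were matched without version to GENCODE M21 (111787 of 112092), and expected counts were summed per gene and rounded. The deposited TPM, scaled by the authors for length and depth, served only for transcript length offsets. Counting used no strand, and reads carried no molecular identifiers.

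A gene entered the test when 4 libraries or more held 10 or more counts of it, and edgeR 4.0.16 was run (R 4.3.3, TMM, quasi-likelihood F test, Benjamini-Hochberg over all tested genes). CPM are TMM-scaled, mean ± SD, and ± beside log2 fold changes is the SE. Simulated data gave 86% recovery of 4-fold changes and 17% of 2-fold changes at an adjusted p below 0.05, without the fold threshold. Summed marker levels were set against each other by exact two-sided permutation of libraries.

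Named genes were the lineage genes and Yap1, the 12 largest called, non-overlapping changes in each direction with a mean of at least 10 CPM, members of the gene lists, and the 5 smallest p of each interaction and direction. Some results that this rule covers are not reported here. The libraries and lists were chosen with earlier results of these data known. Alternatives were DESeq2 1.42.0, RLE factors, library size alone, no count filter, length offsets, the adjusted p alone, the replicate number as a block and each library left out. Deviations of same-numbered CD4+ and CD8+ libraries correlated at 0.433 to 0.836 in WT nodes and 0.162 to 0.65 in tumors. The study sorted both cell types from each tumor, but no source used here says that equal numbers mark the same mouse. Tumor CD4+ replicate 2 correlated at 0.184 with CD8+ replicate 1 and at 0.162 with CD8+ replicate 2. Pairing was therefore not settled there either, and blocked counts are given beside the unblocked ones. Blocked fits of both comparisons, leaving out both Yap-cKO node libraries numbered 3 and recounting the gene lists under each alternative were added after the data were seen.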

Additional observations from a re-analysis of the deposited data

Results flagged for a closer look

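A sample lay far from the other 3 of its group, by a gap beyond Dixon's 95% critical value, in 17 of 254 groups of 4 examined, and chance flags about 1 in 20. Among genes of the CD4+ libraries these were Bend4 (11.3 CPM), Cd8a (6.35 CPM), Haao (0.552 CPM) and Trav16n (3.31 CPM) in replicate 4, Ikzf4 (13.6 CPM) and Klra7 (0.242 CPM) in replicate 3, Il21 (6.97 CPM) in replicate 2, and Nkg7 (32.3 CPM) and Trbv12-1 (16.5 CPM) in replicate 1. In the CD8+ libraries they were Ccr6 (1.11 CPM) in replicate 4, Yap1 (4.86 CPM) and the erythroid marker sum (0.99 CPM) in replicate 3, Il10 (0.0663 CPM), Serpinb9 (61.7 CPM) and Trav9-1 (10.4 CPM) in replicate 2, and Ctla4 (154 CPM) and Tnfrsf25 (31.9 CPM) in replicate 1.

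The CD4+ to CD8+ difference of Yap-cKO cells differed between node and tumor, by the interaction test, for F13a1 (4.72), Pid1 (3.70), Lgmn (4.04), Cd163 (7.82), Cers6 (3.35), Plac8 (-4.44), Sytl3 (-3.28), Arrdc4 (-3.25) and Matk (-2.88), as log2 differences of node minus tumor.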

How the results depend on the processing

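Of the 323 genes called between CD4+ and CD8+ cells, 0 changed sign in any alternative run. DESeq2 called 575 genes (293 and 282 higher in CD4+ and CD8+ cells), and no count filter gave 491 (250 and 241). Leaving out single libraries gave 164 to 318 calls (64 to 158 and 97 to 160), and without both libraries numbered 3 there were 138 (58 and 80). The fits with libraries left out have fewer samples, and the cause of the other shifts was not tested. The replicate number as a block gave 427 calls (200 and 227), and the deviations of same-numbered CD4+ and CD8+ libraries correlated at 0.74, 0.51, 0.391 and -0.0834, with CD4+ replicate 4 closest to CD8+ replicate 3. Pairing in the Yap-cKO node was therefore not settled, and the unblocked fit is reported. The genotype interaction had 2 calls in DESeq2 (1 and 1) and 0 under each library left out. The tissue interaction gave 148 calls (60 and 88) with DESeq2, 59 (23 and 36) without a count filter, 69 (29 and 40) with the replicate block and 19 to 50 (10 to 28 and 9 to 27) with single libraries left out.

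The log2 ratio of pan-T sums (CD4+ to CD8+) was 0.0499 with library size alone, against -0.0226 as reported. With single libraries left out the ratios ranged from -0.136 to 0.0816 for pan-T, -0.266 to 0.033 for myeloid, -0.0768 to 2.19 for erythroid, -0.828 to -0.474 for B-cell, 0.00418 to 0.574 for plasma-cell and 0.276 to 0.573 for melanoma markers. The B-cell and plasma-cell ratios reached an unadjusted exact permutation p of 0.0286, the smallest possible, without CD8+ replicate 4, and the melanoma ratio without CD8+ replicate 3. Yap1 ranged from -0.45 to 0.42 with single libraries left out, the latter without CD8+ replicate 3, and was 0.29 without both libraries numbered 3. Depth limits genes under about 0.2 CPM.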
